A study of Mus musculus with 6 samples.

Results

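The genes described here encode the proteins of the cytosolic ribosome, as measured by RNA-sequencing in mouse breast tumors. They were chosen by name: protein-coding genes whose symbol starts with Rpl or Rps followed by a digit, together with Rplp0, Rplp1, Rplp2 and Rpsa, without the Rps6k kinases, Rps19bp1 and pseudogenes. The rule found 88 genes in the annotation, of which 86 were listed among the 18460 genes of the 6 tumors, Rps27rt and Rpl10l being the 2 that were not listed. Of the 86, 53 encode proteins of the large (60S) subunit and 33 of the small (40S) subunit, and 83 were listed in every tumor. The same 83 genes passed the filter on low counts and were tested together with all 13706 genes that passed, while Rpl32l, Rpl39l and Rpl3l did not pass it.

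Breast tumors came from 6 BALB/c mice that carried the PyMT transgene (PyMTtg), lacked Rag1 (Rag1KO) and received CD4+ T cells when 4 weeks old. The 3 test mice also carried K14-TSLPtg, which drives the cytokine TSLP from a keratinocyte promoter, and the 3 control mice did not. Both groups therefore shared the oncogene, the loss of their own T and B cells and the transferred cells, and per the labels tumors were taken at the endpoint, week 18 to 20. The comparison asks what differs in the tumor transcriptome when the CD4+ T cells are stimulated by TSLP. Each tumor was 1 library, with 8373390 to 9449565 expected counts. The labelled tissue was borne out by its markers: Epcam had 2641 to 7437 counts in the 6 tumors. Rag1 had 4 to 27 counts and Tslp 2 to 12, and the transgene acts in keratinocytes, so Tslp RNA in a tumor does not check the genotype. The T cell gene Cd3e had 1 to 7 counts, too few to describe the transferred cells.

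A ribosome joins 1 copy of nearly every one of these proteins to its ribosomal RNAs, so their genes are among the most highly and most evenly expressed of any cell. Their mRNAs begin with a 5′ terminal oligopyrimidine (TOP) tract, a C followed by a run of further pyrimidines, through which mTORC1 signaling sets their translation. Dividing and secreting cells, of which the mammary epithelium is an example, need a large supply of ribosomes. Most of these genes are short, and the RNA of short genes can be counted with a different efficiency from one library to another, so gene length is given beside the results.

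The start of several of these genes shows the pyrimidine tract, and the windows below are those of members on which the results turn, the first 3 with high and the fourth with a low test to control ratio. Sequences are from RefSeq, GRCm38.p6, on the strand of the gene, 30 bases with 15 before the transcript start given in the promoter entry and 15 from it on, and capitals mark the longest run that opens with C and goes on with at least 6 more C or T.
Rpl38, chr11:114668565-114668594, plus strand: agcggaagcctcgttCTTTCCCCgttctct
Rplp2, chr7:141447636-141447665, plus strand: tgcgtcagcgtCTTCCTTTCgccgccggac
Rps27, chr3:90213634-90213663, minus strand: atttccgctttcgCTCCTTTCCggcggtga
Rpl7a, chr2:26910792-26910821, plus strand: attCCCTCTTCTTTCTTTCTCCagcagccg
For Rpl38 and Rpl7a that start lies 762 and 122 bases inside the gene as annotated, and for the other genes shown it is the first base of the gene. The window of Rps6, the 40S protein phosphorylated by the S6 kinases, also held a tract. Those of Rpl7l1 and Rpl27, which are taken up again below for their low ratios, held none.
Rps6, chr4:86857353-86857382, minus strand: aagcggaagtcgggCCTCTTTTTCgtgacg
Rpl7l1, chr17:46782642-46782671, minus strand: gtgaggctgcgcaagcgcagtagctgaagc
Rpl27, chr11:101442230-101442259, plus strand: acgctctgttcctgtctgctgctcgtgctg
Promoter entries were found for 66 of the 86 members. A run of this kind lay within 25 bases of the start in 38 of the 66 (57.6%), against 25.6% of the 27025 genes with an entry, and on the opposite strand the shares were 16.7% and 28.6%. The letters CTTTCC, which can overlap such a run, lay within 25 bases of the start on the gene strand in 16.7% of the members and 2.92% of all genes, and on the opposite strand in 3.03% and 2.59%. The 36 tested members with a run had a median log2 fold change of 0.58 and the 27 without of 0.48, and the ranges overlapped, from 0.07 to 1.10 and from -0.11 to 0.88. Members with a high ratio were of both kinds. Among windows not printed, those of Rpl36al (log2 fold change 0.88) and Rpl41 (0.77) held no run, and that of Rps15a (0.82) did.

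Ribosomal protein genes made up a large and varying part of each tumor's RNA. They took 4.24%, 7.22% and 4.94% of all counts in the control tumors and 5.54%, 11.5% and 6.01% in the test tumors, given here and from here on in the order of replicates 1, 2 and 3. The means were 5.47% ± 1.56 (SD, n = 3) in the control and 7.67% ± 3.29 (SD, n = 3) in the test group, so the difference of 2.20 percentage points was smaller than the spread among the test tumors. Test replicate 2 was the highest and control replicate 2 the next, and the groups overlapped. Without test replicate 2 the difference was 0.31 percentage points. By FPKM, counts scaled by gene length and library size, the share was 12.5%, 19.4% and 14.4% in the control tumors and 15.4%, 25.6% and 16.5% in the test tumors. Per length, 75 of the 86 members averaged at least 200 FPKM, which 2.33% of all tested genes did, and members filled 49 to 63 of the 100 highest places in each tumor. In bulk tissue, fewer cells of a type and less RNA per cell cannot be told apart.

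The members moved together from tumor to tumor, and more by tumor than by group. Against each gene's mean over the 6 tumors, on the log2 scale, the median member stood at -0.47, 0.17 and -0.38 in the control tumors and at -0.22, 0.95 and -0.05 in the test tumors. Test replicate 2 was the highest tumor for 79 of 83 tested members, and control replicate 2 the second highest for 66. Control replicate 1 was the lowest for 57 and control replicate 3 for 22. Control replicate 2 was above test replicate 1 in 81 members and above test replicate 3 in 69, which is where the groups overlapped, and it was above test replicate 2 in 2. Control and test replicates 2 were together the 2 highest tumors in 68 members, 81.9%, against 12.7% of all tested genes. The most uniform members followed this order closely: Rpl34 had 277, 438 and 286 CPM (counts scaled to library size) in the control tumors and 307, 738 and 360 in the test tumors.

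**Figure D1:**
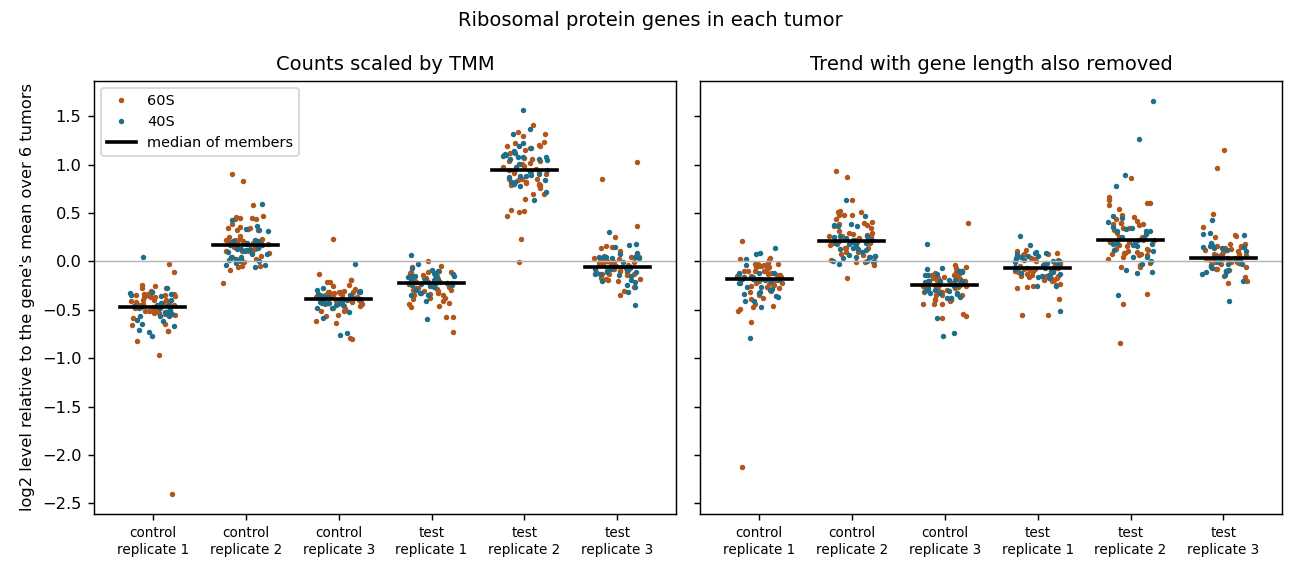
Level of each of 83 tested ribosomal protein genes in each tumor, as log2 CPM relative to the gene's mean over the 6 tumors, with 60S genes in orange, 40S genes in blue and the median as a bar. On the left, counts scaled by TMM put the median of test replicate 2 at 0.95 and that of control replicate 1 at -0.47; on the right, with the trend over gene length removed in each tumor, the medians lie between -0.25 and 0.23.

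Between the groups, 81 of the 83 tested members had a log2 fold change above 0 in the test tumors, against 51.5% of all tested genes. Their median log2 fold change was 0.55, with quartiles at 0.42 and 0.68, beside 0.02 for all tested genes. No member passed the threshold, an adjusted p under 0.05 in edgeR's quasi-likelihood fit (Benjamini-Hochberg, over all 13706 genes), and the share of all genes that did was 0%. Before adjustment 1 member was under 0.05, Rpl38, higher in the test tumors; of all genes 3.15% were higher and 5.26% lower at that level. DESeq2 called 313 of all tested genes (2.28%) and 0 of the members. Before adjustment 1 of 83 members was under 0.05 by DESeq2, against 10.1% of all genes. Standard errors of the members' log2 fold changes ran from 0.31 to 0.67, and the median of 0.55 was below 2 standard errors of every member.

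Groups that did not overlap were rare among the members. Every test tumor was above every control tumor in 1 of 83, against 6.12% of all tested genes, and every test tumor below every control tumor in none, against 5.86%. By FPKM no tested member separated the groups.

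**Figure D2:**
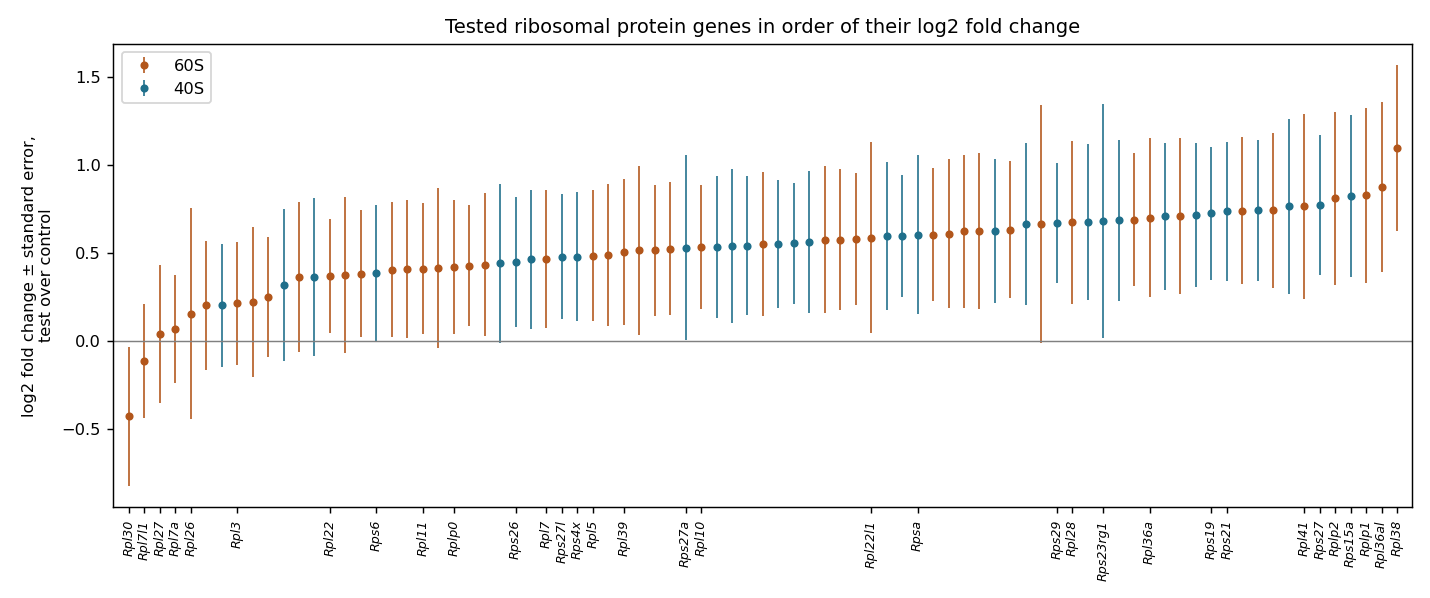
Log2 fold change of test over control for the 83 tested ribosomal protein genes, in order, with the standard error of the edgeR fit as a line, 60S in orange and 40S in blue; genes chosen to be named carry their symbol. Points run from Rpl30 at -0.43 to Rpl38 at 1.10, and 81 lie above 0.

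The tumor left out set the size of this shift. Without test replicate 2 the median log2 fold change of the members was 0.08 and 57 of 83 were above 0. Without control replicate 2 it was 0.77, and 65 members then had every test tumor above both remaining control tumors, as did 16.2% of all tested genes. Without test replicate 1 the median was 0.77 and 14 members stood apart in this way, beside 12.1% of all genes. Leaving out control replicate 1, control replicate 3 or test replicate 3 gave medians of 0.42, 0.46 and 0.72. In none of the 6 fits did a member pass the adjusted threshold.

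**Figure D3:**
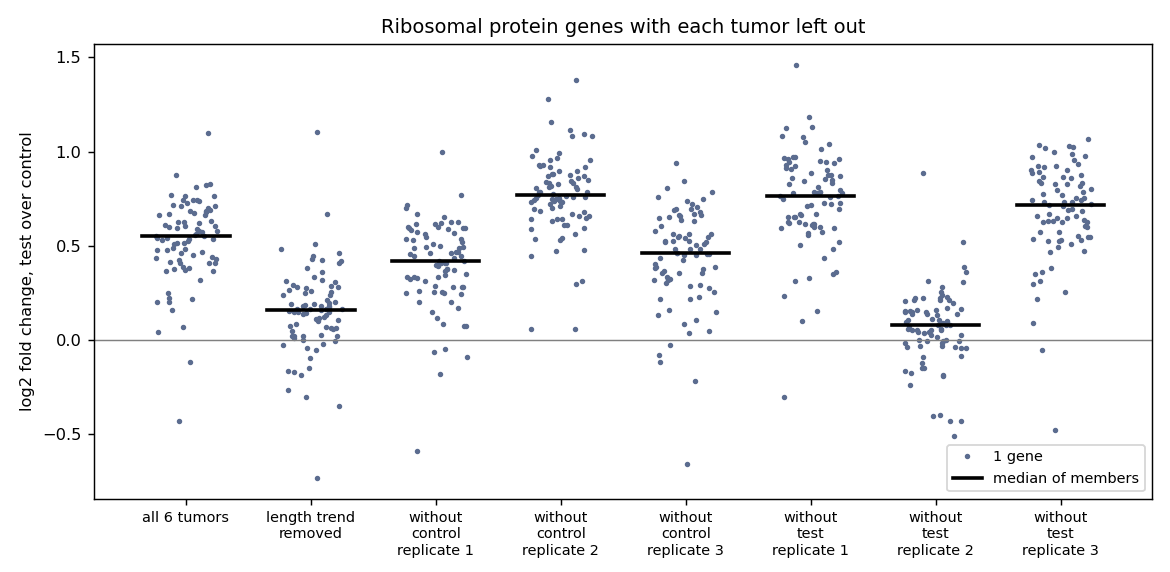
Log2 fold change of test over control for each of 83 tested ribosomal protein genes (points) and their median (bar), with all 6 tumors, with the length trend removed, and with each tumor left out in turn. The median is 0.55 with all tumors, 0.16 with the length trend removed and 0.08 without test replicate 2.

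Gene length moved with the same difference. The tested members had a median length of 703 bases, against 2822 for all tested genes, and 63 of 83 were under 1000 bases, as were 7.27% of all. Among genes under 600 bases, the 32 members had a median log2 fold change of 0.59 and the 199 other genes 0.55, with 90.5% of those other genes above 0. From 600 to 1000 bases the medians were 0.54 for 31 members and 0.36 for 734 others. The members thus lay close to other genes of their length in the shortest class, and above them in the longer ones. From 1000 to 2000 bases the 16 members had 0.48 and the 3100 others 0.17, and from 2000 to 4000 bases the 3 members had 0.37 and the 5735 others -0.01. Spearman's rho between length and log2 fold change was -0.28 across the 83 members and -0.28 across the 13623 other genes, as a description across genes of the same 6 libraries.

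By tumor, short genes outside the set also stood high in test replicate 2: other genes under 600 bases had a median of 0.87 there relative to their own means, and other genes of 4000 bases or more -0.40. In control replicate 2, other genes stood at 0.00 under 600 bases, where the members stood at 0.16. With a smooth trend over gene length removed in each tumor, the members' median in test replicate 2 went from 0.95 to 0.23, while that in control replicate 2 was 0.17 before and 0.21 after. The group difference of the members was then 0.16, with 69 of 83 above 0. Every test tumor was then above every control tumor in 5 of 83 members, against 6.62% of all tested genes. Whether length as such accounts for the difference was not tested.

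**Figure D4:**
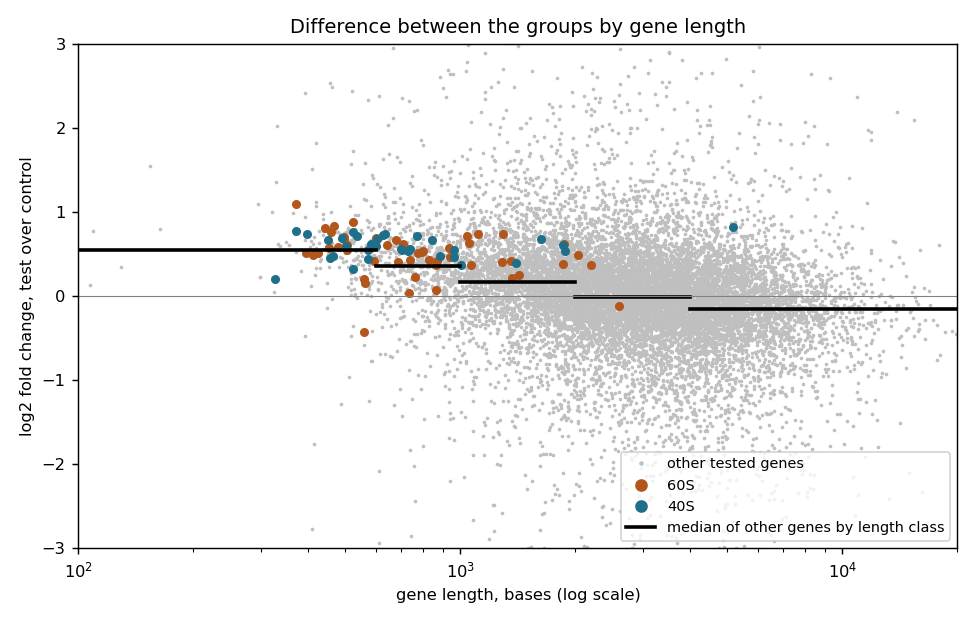
Log2 fold change of test over control against gene length on a log scale, for 60S genes (orange), 40S genes (blue) and the other tested genes (grey), with the median of the other genes in each length class as a bar. Those medians run from 0.55 under 600 bases to -0.15 at 4000 bases or more; 166 genes outside the axes, none of them a member, are not drawn.

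Among the 50 tested 60S genes, 48 had a log2 fold change above 0, with a median of 0.52, and all 33 tested 40S genes did, with a median of 0.60. The stalk of the 60S subunit, built of Rplp0 and pairs of Rplp1 and Rplp2, recruits the GTPases that drive initiation and elongation. Rplp1 had 393, 747 and 554 CPM in the control tumors and 545, 1749 and 713 in the test tumors. Rplp2 had 188, 352 and 226 CPM in the control tumors and 225, 773 and 346 in the test tumors. In both genes test replicate 2 was the highest tumor and test replicates 1 and 3 lay within the control range, and the log2 fold changes were 0.83 ± 0.50 and 0.81 ± 0.49 (SE, adjusted p = 0.700 by edgeR for each). Rplp0, the anchor of the stalk and a common reference gene, had 1372, 2209 and 1742 CPM in the control tumors and 1762, 3380 and 1993 in the test tumors. Its log2 fold change was 0.42 ± 0.38 (SE). Rplp0 is the longest of the 3 genes, with 1360 bases against 468 for Rplp1 and 441 for Rplp2.

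Rpl5 and Rpl11 bind the 5S ribosomal RNA, and free of the ribosome they hold back MDM2, the ubiquitin ligase of p53. Rpl5 had 661, 1124 and 729 CPM in the control tumors and 926, 1655 and 940 in the test tumors, a log2 fold change of 0.49 ± 0.37 (SE). Rpl11 had 431, 671 and 452 CPM in the control tumors and 494, 1013 and 560 in the test tumors, a log2 fold change of 0.41 ± 0.37 (SE). In both genes control replicate 2 was above test replicates 1 and 3, and neither passed the test (adjusted p = 0.760 and 0.787 by edgeR). With the length trend removed Rpl5, of 2036 bases, stood at 0.42 and Rpl11, of 594 bases, at -0.01.

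Of the 40S genes, Rps6 encodes the target of the S6 kinases. Rps6 had 1136, 1923 and 1147 CPM in the control tumors and 1324, 2544 and 1637 in the test tumors, a log2 fold change of 0.39 ± 0.39 (SE). Rpsa, also known as the laminin receptor precursor, had 1272, 1992 and 1435 CPM in the control tumors and 1549, 3933 and 1662 in the test tumors, a log2 fold change of 0.60 ± 0.45 (SE). Control replicate 2 was above test replicates 1 and 3 in both genes. Rps27a, made as a fusion with ubiquitin, had 270, 619 and 246 CPM in the control tumors and 323, 925 and 392 in the test tumors, and its log2 fold change of 0.53 ± 0.53 (SE) was -0.08 without test replicate 2. The largest 40S difference was that of Rps15a, with 87.7, 141 and 86.4 CPM in the control tumors and 113, 324 and 121 in the test tumors. Its log2 fold change of 0.82 ± 0.46 (SE, adjusted p = 0.689 by edgeR) was 0.15 without test replicate 2. At 5158 bases in the deposited gene model it was also the longest member.

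The members with the smallest p were, after Rpl38, Rps29, Rps27, Rps19 and Rps21, all of the 40S subunit. Rps19 is the gene most often mutated in Diamond-Blackfan anemia. It had 229, 363 and 278 CPM in the control tumors and 315, 719 and 405 in the test tumors, and test replicate 1 lay below control replicate 2. Rps29 had 141, 240 and 191 CPM in the control tumors and 210, 412 and 289 in the test tumors, with the same overlap. The log2 fold changes of Rps29, Rps27, Rps19 and Rps21 were 0.67, 0.77, 0.73 and 0.74, with unadjusted p of 0.0861, 0.0903, 0.0914 and 0.0999 and adjusted p of 0.665 to 0.684 by edgeR. Without test replicate 2 they were 0.39, 0.31, 0.31 and 0.22.

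Rpl38 had the largest log2 fold change in the fit to all 6 tumors and did not follow the other members. It encodes a small 60S protein studied for its part in the translation of Hox mRNAs in the embryo (NCBI Gene 67671, GRCm38.p6 chr11:114667818-114672333, plus strand). It had 279, 438 and 252 CPM in the control tumors and 294, 882 and 897 in the test tumors. Test replicate 1 lay within the control range and test replicates 2 and 3 were about the same. The log2 fold change was 1.10 ± 0.47 (SE), with an unadjusted p of 0.0494 and an adjusted p of 0.593 by edgeR. A 95% interval computed from the SE by a normal approximation ran from 0.18 to 2.02. That interval is narrower than the edgeR test implies, since its unadjusted p was just under 0.05. As a share of all ribosomal protein counts it was 0.614%, 0.630% and 0.525% in the control tumors and 0.550%, 0.735% and 1.49% in the test tumors, so test replicate 3 stood apart from the other 5. With the length trend removed its log2 fold change was 0.67, below that of Rps15a at 1.10, and without test replicate 2 it was 0.89. Without test replicate 3 it was 0.88, below Rps15a at 1.07, and on log2(FPKM + 1) it was 0.96, below Rpl37rt at 1.04. The counts of Rps15a and Rpl37rt were fractional in all 6 tumors, so their levels are uncertain.

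At the other end stood Rpl30, Rpl7l1, Rpl27, Rpl7a and Rpl26, whose log2 fold changes were -0.43, -0.11, 0.04, 0.07 and 0.16. Rpl27 had 303, 497 and 308 CPM in the control tumors and 270, 582 and 289 in the test tumors. Its share of ribosomal protein counts was 0.668%, 0.715% and 0.644% in the control tumors and 0.504%, 0.486% and 0.479% in the test tumors, which did not overlap. Rpl7a took 1.85%, 1.86% and 1.82% of ribosomal protein counts in the control tumors and 1.72%, 0.996% and 1.72% in the test tumors. The groups did not overlap for Rpl7a either, and its lowest share was that of test replicate 2, where it had 1194 CPM against 1291 in control replicate 2. Rpl30 took 0.0318%, 0.0425% and 0.0261% in the control tumors and 0.0213%, 0.0129% and 0.0250% in the test tumors, again without overlap. These shares were looked at after the values were seen and were given no test.

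Rpl30 and Rpl26 were far below most other members, with 22.5 to 58.1 FPKM for Rpl30 and 8.38 to 26.8 FPKM for Rpl26 in the 6 tumors, against a median of 1043 FPKM over the tested members. Their counts were fractional in all 6 tumors, as they were for 16 of the 86 members, Rps15a among them, while 61 members had whole counts in every tumor. An expected count can be fractional where reads were divided among several places, and ribosomal protein genes have many processed copies. How such reads were divided here was not given in the sources used, and the levels of these members are uncertain. Rpl37rt, a retrotransposed copy named after its values were seen, had fractional counts of 69.0 in control replicate 1 and of 354 to 760 in the other tumors, the widest spread among the members relative to their joint pattern.

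**Figure D5:**
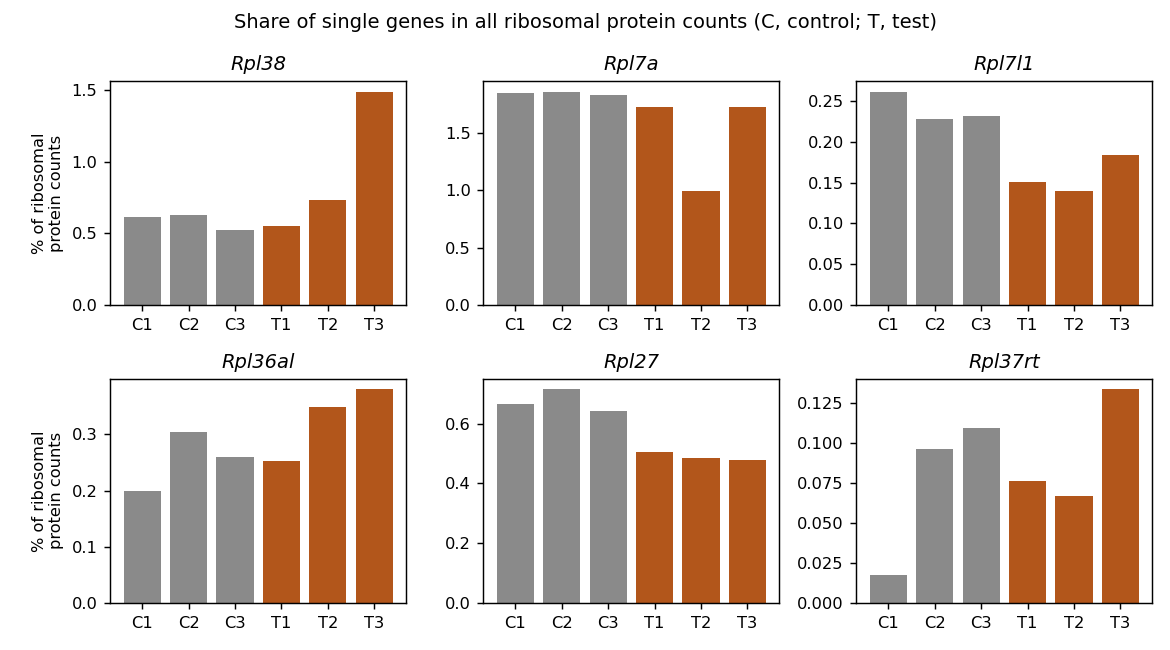
Share of 6 genes in all ribosomal protein counts of each tumor, in percent, with the control tumors C1 to C3 in grey and the test tumors T1 to T3 in orange; each panel has its own axis from 0. Rpl38 reaches 1.49% in T3, Rpl7a is at 0.996% in T2, and the bars of Rpl7l1, Rpl27 and Rpl7a are lower in every test tumor than in any control tumor.

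By FPKM the 3 highest members listed in every tumor were Rpl41, which encodes a very short basic peptide, Rps26, which lies by the mRNA exit channel, and Rpl28. Rpl41 had 2129, 3602 and 2978 FPKM in the control tumors and 2579, 8621 and 3108 in the test tumors, a log2 fold change of 0.77 ± 0.53 (SE) that was -0.03 without test replicate 2. Rps26 had 2537, 3451 and 2737 FPKM in the control tumors and 3099, 5593 and 3000 in the test tumors. Rpl28 had 1940, 2742 and 2258 FPKM in the control tumors and 2224, 6070 and 2488 in the test tumors. Test replicate 2 was the highest tumor in all 3. The 3 lowest were Rps23rg1, a retrogene with 2.98 to 14.9 FPKM, Rpl26 and Rps15a.

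Several ribosomal protein genes have a paralog, and 5 of 8 pairs could be compared in every tumor. Rpl7l1, a relative of Rpl7, stood at 4.93%, 3.89% and 4.36% of the FPKM of Rpl7 in the control tumors and at 2.79%, 2.79% and 3.08% in the test tumors. The groups did not overlap, and the log2 ratio was lower by 0.60 in the test tumors (difference -0.60). An exact two-sided permutation test gave p = 0.1, the smallest that 3 against 3 tumors can give, and 0.5 after Benjamini-Hochberg adjustment over the 5 pairs. Leaving out each tumor in turn gave differences from -0.68 to -0.51. With the length trend removed, which was tried only once these values were known, the difference was -0.31 and the groups overlapped, the log2 ratio relative to its mean being 0.22, 0.13 and 0.13 in the control tumors and -0.48, 0.29 and -0.28 in the test tumors. Rpl7l1 itself had 119, 158 and 111 CPM in the control tumors and 80.7, 167 and 111 in the test tumors. Its gene model, of 2606 bases, is longer than that of Rpl7, of 937 bases, so the pair is not matched for length, and its counts were fractional in all 6 tumors.

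In the other pairs the groups overlapped. Rps27l, a paralog of Rps27 induced by p53, stood at 17.0%, 19.7% and 23.1% of Rps27 in the control tumors and at 17.2%, 15.1% and 18.7% in the test tumors (difference in log2 ratio -0.23, exact permutation p = 0.3, adjusted 0.5). Rpl36al stood at 36.3%, 54.4% and 52.7% of Rpl36a in the control tumors and at 49.4%, 52.3% and 66.2% in the test tumors (difference 0.24, exact permutation p = 0.6, adjusted 0.75). Rpl36al itself had 90.3, 211 and 124 CPM in the control tumors and 136, 417 and 229 in the test tumors. Its log2 fold change was 0.88 ± 0.48 (SE, adjusted p = 0.686 by edgeR) and 0.36 without test replicate 2. Rpl22l1, the paralog of the T cell development gene Rpl22, stood at 40.7%, 45.9% and 28.4% of Rpl22 in the control tumors and at 31.5%, 62.1% and 33.6% in the test tumors (difference 0.10, exact permutation p = 0.8, adjusted 0.8). Rps4l, a transcribed pseudogene that is no member, was under 0.2% of Rps4x in every tumor (difference 0.82, exact permutation p = 0.2, adjusted 0.5). With 3 tumors a group no pair could have passed 0.05.

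The tissue-restricted paralogs were near the limit of detection. Rpl3l, the striated muscle paralog of Rpl3, had 0, 6 and 0 counts in the control tumors and 19, 0 and 9 in the test tumors. All 16 skeletal muscle markers had a log2 fold change above 0. Of these, 3 had an unadjusted p under 0.05 by edgeR, where 3.15% of all tested genes were higher at that level. After adjustment 0 were called by edgeR or by DESeq2, against 0% and 2.28% of all tested genes. Their summed level was 20.6, 309 and 25.9 CPM in the control tumors and 1686, 274 and 171 in the test tumors, so the groups overlapped and test replicate 1 was the highest. Among these markers only Ckm was at 0 in a tumor, control replicate 1. Their part in the counts of Rpl3l was not tested. Rpl39l, a paralog of Rpl39 best known from testis, had 0, 1 and 1 counts in the control tumors and 2, 9 and 2 in the test tumors, at or below 3 counts in 5 of the 6.

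Other genes of the translation machinery were read from the same fit. Of the mitochondrial ribosomal protein genes, 70 of 78 had a log2 fold change above 0, with a median of 0.28, from -0.48 for Mrps14 to 0.95 for Mrps7. Without test replicate 2 their median was 0.01. Fau encodes a 40S protein as a fusion with a ubiquitin-like protein and lies outside the naming rule. Fau had 470, 519 and 449 CPM in the control tumors and 546, 1441 and 661 in the test tumors. Every test tumor was above every control tumor, and the log2 fold change was 0.88 ± 0.41 (SE) with an adjusted p of 0.633 by edgeR.

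Long mRNAs with a TOP tract did not share the members' pattern to the same degree. Of 22 genes for translation factors and other TOP mRNAs, Fau among them, 15 were above 0, with a median of 0.12 and Pabpc1, the poly(A) binding protein, the lowest at -0.38. By tumor, the list median relative to each gene's mean was -0.21, 0.36 and -0.31 in the control tumors. In the test tumors it was -0.11, 0.42 and -0.02, so the list too was highest in test replicate 2 and next in control replicate 2. Eef2, the translocation factor, went against its list. It had 3304, 4134 and 3225 CPM in the control tumors and 3653, 2160 and 3175 in the test tumors, lowest in test replicate 2. Of 32 ribosome assembly genes, 21 were above 0, with a median of 0.14, from -0.44 for Mybbp1a to 0.64 for Fbl, the rRNA methyltransferase fibrillarin. By edgeR 0 genes of these 3 lists had an adjusted p under 0.05, as was so for all tested genes. Before adjustment 1 of 78 Mrpl and Mrps genes was under 0.05, against 8.41% of all tested genes. DESeq2 called 0 genes of these lists after adjustment, against 2.28% of all tested genes.

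Markers of the cells in the tumors were set beside these values. All 11 luminal epithelial markers had a log2 fold change above 0, with a median of 0.81, and their summed level was 2362 to 5092 CPM in the control and 6326 to 6467 in the test tumors, none of them at 0 in any tumor. Control replicate 2, second highest for most ribosomal protein genes, had the highest luminal sum of the control tumors. Test replicate 2, highest for most of these genes, had the lowest luminal sum of the test tumors, 6326 CPM against 6381 and 6467. Of 15 proliferation genes, 12 were above 0, with a median of 0.20, from -0.15 for Top2a to 1.18 for Birc5, and their sums were 915, 1905 and 1140 CPM in the control tumors and 927, 1715 and 1722 in the test tumors. Proliferation genes were thus high in control replicate 2, in test replicate 2 and also in test replicate 3, where the median ribosomal protein gene was near its mean. Of 9 adipocyte markers 5 were tested and all 5 were above 0, with a median of 2.03, and Plin1, Retn and Lep were each at 0 in at least 1 tumor. The summed level of the 5 was 60.3 to 123 CPM in the control and 53.1 to 890.4 in the test tumors, so the groups overlapped. Other lists had more members below 0: 6 of 7 basal epithelial markers (median -0.69), 6 of 9 macrophage markers (median -0.48) and 3 of 4 tested neutrophil markers (median -0.88). Of 4 tested erythroid markers 3 were below 0 (median -0.04). Above 0 were 5 of 8 fibroblast (median 0.40), 4 of 6 endothelial (median 0.21) and 2 of 3 tested T cell markers (median 0.24). Fibroblast sums were 3729, 3820 and 3718 CPM in the control tumors and 1736, 5912 and 2565 in the test tumors. DESeq2 called 1 of 11 luminal, 1 of 5 adipocyte and 1 of 7 basal markers after adjustment, against 2.28% of all tested genes. By edgeR 0 were called, as was so for all tested genes. The part of these markers in the level of the ribosomal protein genes was not tested.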

How the data were processed

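RNA from 3 control and 3 test breast tumors, 1 library each, was sequenced at the Beijing Genomics Institute, and reads were aligned to mm10. The submitters' notes name Bowtie, BWA and RSEM without roles. The authors deposited, per gene, an expected count, an FPKM value and the gene length. A gene absent from a tumor's table was taken as 0. Genes were named through their NCBI Gene identifiers (18400 of 18460; 13 more by transcript). Expected counts were rounded and tested in edgeR 4.0.16 (R 4.3.3) by glmQLFTest after filterByExpr, with TMM scaling and Benjamini-Hochberg adjustment over 13706 genes; CPM are scaled by TMM. Alternatives used DESeq2 1.42.0, limma 3.58.1 on log2(FPKM + 1) and log2(FPKM + 0.1), other scalings and filters, a loess trend over gene length (span 0.3) removed per tumor, a replicate term, and each tumor left out. The script was tested on simulated counts.

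The totals of 8373390 to 9449565 counts make counting error small for most members; the dispersion between tumors (biological coefficient of variation 0.434) limited precision. Each tumor came from a separate mouse, and p-values measure the spread among 3 tumors a group. Members and lists were chosen with earlier results of these data known, so no list was tested. Members named with values were those of fixed roles (stalk, 5S binding, Rpsa, Rps6, Rps27a) and of paralog pairs, the 5 with the largest and the 5 with the smallest log2 fold change, the 5 with the smallest p, and the 3 highest and 3 lowest by FPKM among members listed in every tumor; of other lists, the extremes. Rpl37rt, Rpl34, Fau and Eef2 were added after values were seen. Values of some single genes are not reported here. No protein sequence was used here.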

Additional observations from a re-analysis of the deposited data

How the results depend on the processing

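No alternative brought a ribosomal protein gene past the adjusted threshold. Over all genes, against 0 by edgeR, DESeq2 called 313, limma on log2(FPKM + 1) called 1, and leaving out each tumor in turn gave 0 to 182, the highest without control replicate 2. The median log2 fold change of the members was 0.08 to 0.77 with a tumor left out, lowest without test replicate 2, and 0.16 to 0.61 under the other alternatives, lowest with the length trend removed. Members under an unadjusted p of 0.05 numbered 0 to 6 with a tumor left out, namely 3 (3.61%, against 14.3% of all genes) without control replicate 2 and 6 (7.23%, against 7.98%) without test replicate 1. The share difference was 0.31 to 3.27 percentage points of counts and 0.49 to 5.71 of FPKM with a tumor left out. Over all tested genes, same-numbered tumors correlated at -0.03, 0.10 and -0.14 in their deviations from the group means. These values do not cover an effect limited to some genes, and the 2 tumors numbered 2 were the highest in 68 of 83 members. Each tumor was from a separate mouse. With a replicate block the member median was 0.47, with 80 of 83 above 0. In that fit 4 members (4.82%, against 7.70% of all genes) were under an unadjusted p of 0.05, and 0 passed the adjusted threshold.

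Signs turned for several members, and those listed are members named above unless stated otherwise. With the length trend removed the log2 fold changes were -0.0059 for Rpl11, -0.30 for Rpl26, -0.35 for Rpl27, -0.18 for Rpl7a, -0.024 for Rps26 and -0.019 for Rpl34, the last examined after the data were seen. Members not named above also turned in that setting: Rps28 at -0.27, Rpl19 at -0.17, Rpl23a at -0.16, Rps18 at -0.145, Rpl36 at -0.053 and Rps10 at -0.044. Rpl27 was at -0.0219 on log2(FPKM + 1), -0.0219 on log2(FPKM + 0.1) and -0.012 with the replicate block. With a tumor left out the log2 fold changes ran from -0.17 to 1.01 for Rpl22l1, -0.40 to 0.81 for Rpl26, -0.40 to 0.31 for Rpl27, -0.017 to 0.47 for Rpl3, -0.66 to 0.057 for Rpl30, -0.035 to 1.08 for Rpl41, -0.048 to 0.30 for Rpl7a, -0.43 to 0.10 for Rpl7l1, -0.43 to 1.04 for Rps23rg1 and -0.082 to 1.08 for Rps27a. The log2 difference of the Rpl22l1 to Rpl22 ratio ran from -0.21 to 0.28. The cause was not tested.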
